A study of Mus musculus with 6 samples.

Results

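Integrins and the proteins that tie them to the actin cytoskeleton were examined as a set of 42 named genes in mouse embryo fibroblasts (MEFs). The set was given by gene symbol and not by a cutoff on any measured value, but earlier results of these data were known when it was chosen. All 42 symbols were found among the 55565 genes listed in the count and FPKM tables. It holds 13 integrin alpha chains, 7 integrin beta chains, fibronectin and 21 intracellular focal adhesion genes, and all 42 are protein-coding. RNA sequencing covered 3 libraries of each genotype, named WT1 to WT3 and KO1 to KO3. Both came from crosses that mix C57BL/6J and ICR, as trunk cells of embryonic day 13.5 embryos, and both were made immortal with an SV40 gene delivered by lentivirus. WT MEFs carry intact Mcm8, and KO MEFs lack it through a frameshifting exon deletion made with CRISPR-Cas9 that is present in every cell of the animal. Mcm8 encodes a helicase of the minichromosome maintenance family. The study's methods call the 3 libraries within a genotype biological repeats but do not state if they are separate embryos or cultures. P-values therefore say nothing on spread beyond these libraries.

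Integrins are cell surface receptors made of 1 alpha and 1 beta chain. The alpha chain largely sets which matrix protein is bound. Alpha chains fall into collagen-binding, laminin-binding and RGD-binding classes, the last named after the short peptide motif of fibronectin and vitronectin, and the alpha4 and alpha9 chains form a further class. Inside the cell, talins and kindlins bind the beta tail and switch the receptor on. The ILK-PINCH-parvin complex, vinculin, filamin, alpha-actinins, zyxin and tensins link it to actin, and FAK, Src, paxillin and p130Cas pass signals on. Fibroblasts live attached to matrix and are rich in these genes.

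The targeted gene was measured first. Mcm8 (chromosome 2, from 132658061 to 132686117) counted 176, 233 and 238 reads in the WT and 89, 74 and 66 reads in the KO libraries, in order of their numbers, a log2 fold change (KO against WT) of -1.75 with a standard error of 0.16. Library totals ran from 12722979 to 21022755 counts. The members held 1.58% of the counts of WT1 and from 1.96% to 2.02% of those of each other library. WT1 thus stood apart in this set, and the values it bears on most are also given without it. The 10 fibroblast markers summed to between 2920 and 3110 FPKM in WT and between 2940 and 3040 FPKM in KO libraries. Of these 10, 4 were lower in KO (Thy1, Pdgfrb, Vim and S100a4, with log2 fold changes of -1.03, -0.74, -0.19 and -0.49) and 2 were higher (Col1a1 and Col3a1, 0.20 and 0.29). Of the other marker lists, smooth muscle had 1 of 6 lower (Acta2), with sums of 747 to 835 FPKM in WT and 581 to 606 FPKM in KO, and the endothelial and the Schwann and neural crest markers each stayed under 1 FPKM in sum. All 5 sex-linked genes were called: Xist was lower in KO (log2 fold change -1.31) and the 4 Y-linked genes were higher (log2 fold changes from 1.95 to 2.46). Both kinds were detected in every library, and the part of this difference in any value below was not tested. Bulk RNA cannot tell a smaller number of cells of a type from less RNA per cell.

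Of the 42 members, 13 were higher and 10 lower in KO MEFs at an adjusted p below 0.05, and 19 were not called (quasi-likelihood test of edgeR, with p-values adjusted by Benjamini-Hochberg over all 26898 genes tested). Over all genes tested, 4.97% were called higher and 4.03% lower. The members are mostly well expressed, and among the 13222 genes with a mean of at least 1 CPM (a gene's counts scaled to library size) the shares were 9.08% higher and 7.88% lower, beside 12 and 10 of the 39 members at that level. The median log2 fold change of the members was 0, and 0.01 over all genes tested. Many called differences were small: 11 of the 23 had an absolute log2 fold change below 0.5. Past a 2-fold change, 6 members were higher (Itga2, Itga3, Itga6, Itgb7, Itgb8 and Parvb) and 3 were lower (Itga4, Itga8 and Itga11), against a background of 1.75% and 0.665% of all genes tested. These 9 are 8 integrin chains and 1 parvin. Without KO2, 12 members were called higher and 6 lower, beside 3.93% and 2.78% of all genes tested. Without WT1, 15 members were called higher and 15 lower. There the shares over all 26516 genes tested also grew, to 6.22% higher and 6.12% lower, and Itga6 passed under the 2-fold limit (log2 fold change 0.99). Without WT2, Itga8 did so (-0.96), which left 2 lower past 2-fold, and without KO3 Lims2 joined them (-1.34), which made 4.

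**Figure D1:**
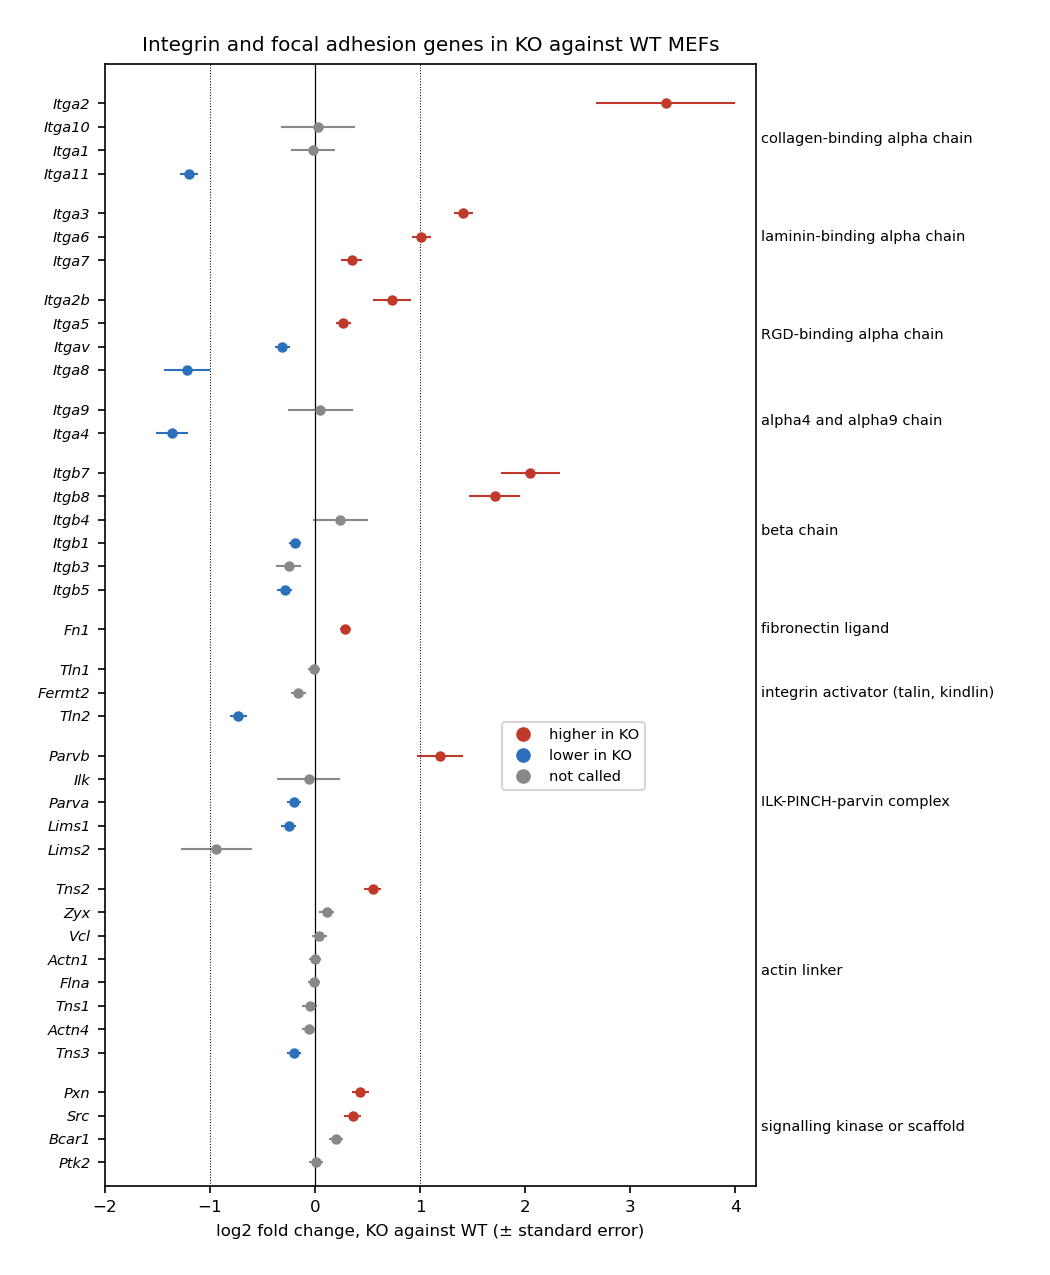
Log2 fold change of 40 members in KO against WT MEFs (horizontal axis, with the standard error of the fit as bars), grouped by role. Red marks members called higher, blue those called lower and grey those not called, and the dotted lines stand at a 2-fold change. Itgb6 and Fermt1, with 3 or fewer counts in every library, are left out. The 3 laminin-binding chains lie to the right of 0, from 0.35 to 1.41.

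Promoter sequences are shown for the members past a 2-fold change, as the stretch upstream of the genes that moved most. RefSeq (GRCm38.p6) listed a promoter for 32 of the 42 members, 38 promoters in all, and for 8 of these 9 members, Itga6 being without one. Each line gives the 200 bases before the annotated start on the strand of the gene, 5′ to 3′, with the GC box (GGGCGG, searched on both strands) in capitals. Itga3 has 2 listed starts, of which the first is shown.
Itga2 (chr13:114932101-114932300, minus strand): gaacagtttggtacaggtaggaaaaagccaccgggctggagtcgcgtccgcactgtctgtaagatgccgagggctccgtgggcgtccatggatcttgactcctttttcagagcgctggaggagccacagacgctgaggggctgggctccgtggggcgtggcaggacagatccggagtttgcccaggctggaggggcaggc
Itga3 (chr11:95076715-95076914, minus strand): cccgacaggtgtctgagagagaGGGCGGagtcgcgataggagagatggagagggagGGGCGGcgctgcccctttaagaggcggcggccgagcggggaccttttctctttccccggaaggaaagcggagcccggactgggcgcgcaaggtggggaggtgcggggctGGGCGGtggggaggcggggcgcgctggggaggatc
Itga4 (chr2:79255226-79255425, plus strand): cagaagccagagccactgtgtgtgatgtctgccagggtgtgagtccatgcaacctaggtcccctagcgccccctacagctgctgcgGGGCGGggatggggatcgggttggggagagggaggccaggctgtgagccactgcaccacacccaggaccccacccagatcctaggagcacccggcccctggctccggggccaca
Itga8 (chr2:12301945-12302144, minus strand): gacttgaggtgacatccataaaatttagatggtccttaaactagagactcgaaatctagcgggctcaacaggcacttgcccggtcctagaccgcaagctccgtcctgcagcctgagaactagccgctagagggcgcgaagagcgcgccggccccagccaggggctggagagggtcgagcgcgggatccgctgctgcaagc
Itga11 (chr9:62677655-62677854, plus strand): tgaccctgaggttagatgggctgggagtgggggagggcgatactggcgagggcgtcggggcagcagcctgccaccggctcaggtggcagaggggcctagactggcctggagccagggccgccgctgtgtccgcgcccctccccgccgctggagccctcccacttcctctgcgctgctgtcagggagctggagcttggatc
Itgb7 (chr15:102231936-102232135, minus strand): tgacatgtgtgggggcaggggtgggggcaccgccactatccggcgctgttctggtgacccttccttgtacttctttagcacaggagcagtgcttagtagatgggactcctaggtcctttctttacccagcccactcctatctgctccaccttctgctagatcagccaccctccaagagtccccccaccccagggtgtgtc
Itgb8 (chr12:119238277-119238476, minus strand): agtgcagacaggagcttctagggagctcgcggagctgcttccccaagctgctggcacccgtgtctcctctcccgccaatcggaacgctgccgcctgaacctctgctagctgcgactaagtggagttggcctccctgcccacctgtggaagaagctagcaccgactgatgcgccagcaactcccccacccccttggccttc
Parvb (chr15:84231843-84232042, plus strand): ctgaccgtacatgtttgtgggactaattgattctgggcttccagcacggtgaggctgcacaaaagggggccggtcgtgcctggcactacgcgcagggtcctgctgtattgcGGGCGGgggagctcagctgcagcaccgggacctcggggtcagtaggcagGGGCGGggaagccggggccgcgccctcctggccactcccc

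Counting from the start, where -1 is the base before it, Itga3 had GC boxes beginning at -178, -144 and -35, Parvb at -89 and -40, and Itga4 at -114. The other 5 windows held none of these letters. Over whole promoters of 300 bases, which reach 50 bases past the start, a GC box was found in 60.5% of the 38 member promoters and in 35.7% of all 32851 promoters listed. AP-1 letters (TGANTCA) were in 10.5% of member and 7.81% of all promoters, ETS letters (CCGGAAG) in 7.89% and 8.86%, TEAD letters (GGAATG) in 13.2% and 14.7%, and a TATA box (TATAAA) in 2.63% and 13.6%. Each motif was searched on both strands, the AP-1 letters read alike on both, and no matches overlapped each other in the promoters shown. These shares describe letters only. Among the 8 members shown, the whole promoter held a GC box in Itga3, Parvb and, just past its start, Itga2, which were higher in KO, and in Itga4, which was lower.

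The laminin-binding alpha chains rose together in KO MEFs, and all 3 of 3 were called higher. Itga3 (chromosome 11, from 94935300 to 94967627, minus strand, GRCm39) encodes alpha3, which pairs with beta1 as a receptor for laminins of epithelial basement membranes. Its level was 4.38, 3.88 and 4.62 FPKM in WT1, WT2 and WT3 and 11.5, 11.1 and 11.8 FPKM in KO1, KO2 and KO3. The lowest KO library was thus above the highest WT library by more than the range within either genotype. The log2 fold change was 1.41 with a standard error of 0.09, or 2.66-fold (edgeR adjusted p = 8.51e-52).
Itga6 (chromosome 2, from 71575960 to 71688760, plus strand) encodes alpha6, the partner of beta1 and, in hemidesmosomes, of beta4. It had 3.67, 4.01 and 3.73 FPKM in the WT and 7.73, 7.53 and 7.72 FPKM in the KO libraries. The genotypes did not overlap, and the log2 fold change was 1.01 with a standard error of 0.09 (edgeR adjusted p = 3.38e-29). Itga7, the laminin receptor chain best known from muscle, moved less, from 3.57 ± 0.1 to 4.55 ± 0.0938 FPKM (mean ± SD, n = 3 each), a log2 fold change of 0.35 (SE 0.10, edgeR adjusted p = 0.00489). Its call was lost without KO2 (edgeR adjusted p = 0.0518).
Their summed level was 11.7, 11.3 and 12 FPKM in WT1, WT2 and WT3 and 23.7, 23.2 and 24 FPKM in KO1, KO2 and KO3, 2.03 times as much. An exact permutation test of 3 against 3 libraries (two-sided) gave p = 0.1, the smallest it can give. Lama5, which encodes the laminin alpha5 chain bound by alpha3 and alpha6 integrins, also rose, from 1.72 ± 0.341 to 8.40 ± 0.461 FPKM (log2 fold change 2.28, SE 0.09, edgeR adjusted p = 7.88e-138). Of the other laminin chains on the list, named after their values were seen, Lama4 was lower (log2 fold change -0.69, SE 0.09), Lamb2 was higher (0.26, SE 0.07), and Lama2, Lamb1 and Lamc1 were not called (0.23, -0.12 and -0.08).

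Some markers of epithelium and mesothelium were also higher in KO. Of the 10 epithelial markers 8 were tested and 2 were higher (Krt8 and Krt18), and their sum was between 0.455 and 0.777 FPKM in WT and between 3.57 and 4.32 FPKM in KO libraries. Krt5 and Esrp1 were at 0 counts in every library, and Cdh1 had from 0 to 2 counts in WT and from 3 to 10 in KO libraries. Of the 8 mesothelial markers 6 were tested and 2 were higher (Msln and Krt19), with sums between 2.69 and 3.22 FPKM in WT and between 17.2 and 19.7 FPKM in KO. Msln had a mean of 0.938 FPKM in WT and 14.6 FPKM in KO, Krt19 one of 1.94 and 3.5 FPKM, while Lrrn4 and Muc16 were at 0 counts in every library and Wt1 had from 2 to 7 counts in each. Their part in the rise of Itga3 and Itga6 was not tested. Beside the higher Itga7, none of the 8 skeletal muscle markers tested of 10 was called by edgeR or DESeq2, and 1 had an unadjusted p below 0.05. Their sums were 2.67 to 3.74 FPKM in WT and 2.99 to 3.53 FPKM in KO, with Myod1 and Pax7 at 0 counts.

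**Figure D2:**
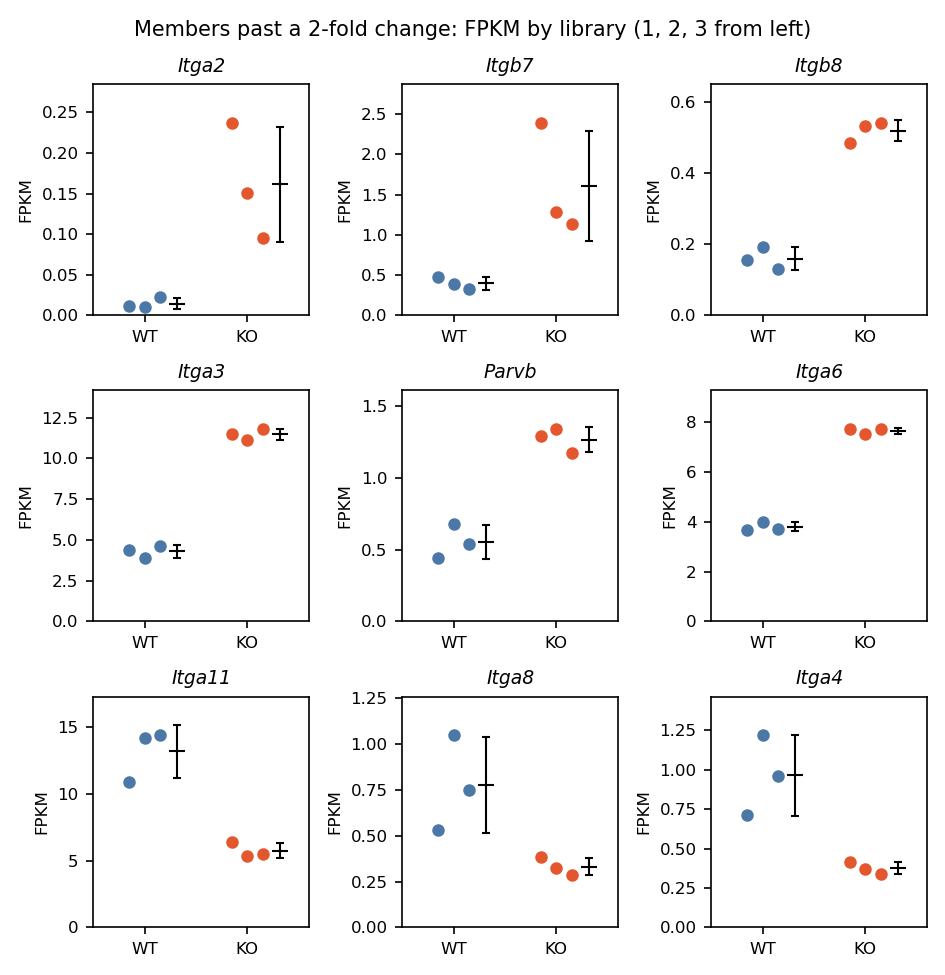
FPKM of the 9 members past a 2-fold change in each library (points, libraries 1 to 3 from left to right in each genotype, each panel with its own vertical axis from 0), with the mean and SD of the 3 libraries beside them. No panel has an overlap between genotypes, which follows largely from picking these 9 by their change in the same libraries. Itgb7 is highest in KO1 at 2.39 FPKM, and Itga8 and Itga4 are lowest among WT libraries in WT1.

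Of the 4 collagen-binding alpha chains, Itga11 was lower and Itga2 higher in KO MEFs, and Itga1 and Itga10 were not called. Itga11 (chromosome 9, from 62585108 to 62691264, plus strand), whose alpha11 chain is the main receptor of fibroblasts for fibrillar collagen, was by far the most abundant of them. It fell from 10.9, 14.2 and 14.4 FPKM in WT1, WT2 and WT3 to 6.39, 5.37 and 5.50 FPKM in KO1, KO2 and KO3. All KO libraries lay below all WT libraries, at a fitted 43.6% of the WT level (log2 fold change -1.20, SE 0.09, edgeR adjusted p = 1.21e-39), and with 1 library left out the log2 fold change lay between -1.31 (without WT1) and -1.12 (without WT3).
Itga2 (chromosome 13, from 114969617 to 115068636, minus strand), the alpha2 chain of platelets and epithelia, was barely detected in WT. Its counts were 1, 1 and 3 in the WT and 36, 18 and 11 in the KO libraries. Scaled to library totals the ratio was 11, with an exact 95% interval of 4.47 to 34.9 that covers counting error only (edgeR adjusted p = 1.59e-05). Even so, its mean was 0.161 FPKM in KO, far under the 5.75 FPKM of Itga11 there. Itga1, the other widely expressed collagen receptor chain, had 0.223 ± 0.00869 FPKM in WT and 0.218 ± 0.0412 FPKM in KO (log2 fold change -0.02, SE 0.21). Itga10, the alpha10 chain of cartilage, had 0.281 ± 0.0211 and 0.287 ± 0.0316 FPKM (log2 fold change 0.03, SE 0.35), and neither was called. The span of Itga1 shares 1832 bases with Pelo on the same strand, so reads between them may be split or dropped. The sum of the 4 chains was 13.7 ± 1.97 FPKM in WT and 6.42 ± 0.664 FPKM in KO (0.468 times, exact permutation p = 0.1). The log2 ratio of these means was -1.10, and -1.21 without WT1.

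Each of the 4 RGD-binding alpha chains was called, 2 in each direction, and their sum hardly differed. Itga5, the alpha5 chain of the classical fibronectin receptor, rose from 38.7 ± 1.14 to 46.7 ± 0.609 FPKM (log2 fold change 0.27, SE 0.07, edgeR adjusted p = 0.00208). Itgav, the alphav chain of the vitronectin receptors and of the integrins that free active TGF-beta, fell from 40.9 ± 1.72 to 32.9 ± 0.715 FPKM (log2 fold change -0.31, SE 0.07, edgeR adjusted p = 8.69e-05). In WT1, WT2 and WT3 Itgav stood at 39.2, 42.7 and 40.8 FPKM beside 37.4, 39.4 and 39.4 FPKM for Itga5. In KO1, KO2 and KO3 Itgav stood at 33.6, 33.0 and 32.2 FPKM beside 46.9, 46.1 and 47.2 FPKM for Itga5. By FPKM the higher of these chains was therefore Itgav in each WT library and Itga5 in each KO library. The WT margin was small, and FPKM rests on the annotated gene lengths (10744 bases for Itgav and 4933 for Itga5). Which chain was more abundant in WT is thus uncertain.
Itga8 (chromosome 2, from 12111443 to 12306733, minus strand), the nephronectin receptor chain of mesenchyme, was lower by more. It had 0.532, 1.05 and 0.750 FPKM in WT1, WT2 and WT3 and 0.382, 0.325 and 0.287 FPKM in KO1, KO2 and KO3. The gap between genotypes was smaller than the spread among WT libraries, and WT1 lay nearest to the KO libraries (log2 fold change -1.22, SE 0.22, edgeR adjusted p = 1.52e-06). The log2 fold change was -1.42 without WT1 and -0.96 without WT2 (edgeR adjusted p = 0.00199). Npnt, which encodes nephronectin, was higher in KO at 3.16 against 1.63 FPKM (log2 fold change 0.95, SE 0.14), and is named here after its values were seen. Itga2b, the platelet alphaIIb chain, rose from 0.829 ± 0.0308 to 1.38 ± 0.0682 FPKM (log2 fold change 0.73, SE 0.18, edgeR adjusted p = 0.00136). Beside it, none of the 3 tested platelet markers of 5 was called by edgeR or DESeq2, and 2 had an unadjusted p below 0.05, 1 in each direction. They summed to 0.170 to 0.254 FPKM in WT and 0.369 to 0.482 FPKM in KO libraries, with Gp9 and Pf4 at 0 counts throughout, and their part in the value of Itga2b was not tested. The RGD-binding sum was 81.2 ± 2.98 FPKM in WT and 81.4 ± 0.787 FPKM in KO (exact permutation p = 1).

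Itga4 (chromosome 2, from 79085770 to 79163467, plus strand) encodes alpha4, which binds VCAM1 and fibronectin. Its level was 0.712, 1.22 and 0.958 FPKM in WT1, WT2 and WT3 and 0.413, 0.373 and 0.338 FPKM in KO1, KO2 and KO3. Every KO library was below every WT library, at a fitted 39.0% of the WT level (log2 fold change -1.36, SE 0.15, edgeR adjusted p = 1.22e-16). With 1 library left out it lay between -1.52 (without WT1) and -1.16 (without WT2). Itga9, its closest relative, had 0.250 ± 0.0751 FPKM in WT and 0.257 ± 0.0304 FPKM in KO and was not called (log2 fold change 0.05, SE 0.31). Itga4, Itga6, Itga8, Itgav, Itgb6, Fermt1 and Src lie on chromosome 2 with the targeted gene. Fermt1 is 0.0602 Mb from Mcm8 and the others from 24.6 Mb (Src) to 120 Mb (Itga8), and the part of linked alleles of the mixed background in these values was not tested.

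Set against each other per length, the alpha chains thus shifted in makeup while their sum stayed close. The 13 chains summed to 102, 111 and 110 FPKM in WT1, WT2 and WT3 and to 114, 111 and 112 FPKM in KO1, KO2 and KO3 (exact permutation p = 0.2, log2 ratio of the means 0.06, and 0.02 without WT1). The order of the mean levels in WT was Itgav, Itga5, Itga11, Itga3, Itga6 and Itga7, followed by Itga4, Itga2b and Itga8 near or under 1 FPKM. Across the WT libraries the ranges of Itgav and Itga5 overlapped, as did those of Itga3 and Itga6 and those of Itga4, Itga2b and Itga8. In KO the order was Itga5, Itgav, Itga3, Itga6, Itga11 and Itga7, and no neighbours among these overlapped.
Laminin-binding chains made up 10.8% ± 0.624 of the alpha chain sum in WT and 21.1% ± 0.347 in KO libraries. Collagen-binding chains went the other way, from 12.7% ± 1.30 to 5.72% ± 0.509. The RGD-binding share was 75.3% ± 0.987 in WT and 72.6% ± 0.386 in KO, within which Itgav went from 37.9% to 29.4% and Itga5 from 35.9% to 41.7%. In each of these 5 shares the genotypes did not overlap, and each exact permutation p was 0.1. These are shares of RNA and say nothing on how much protein reached the cell surface.

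**Figure D3:**
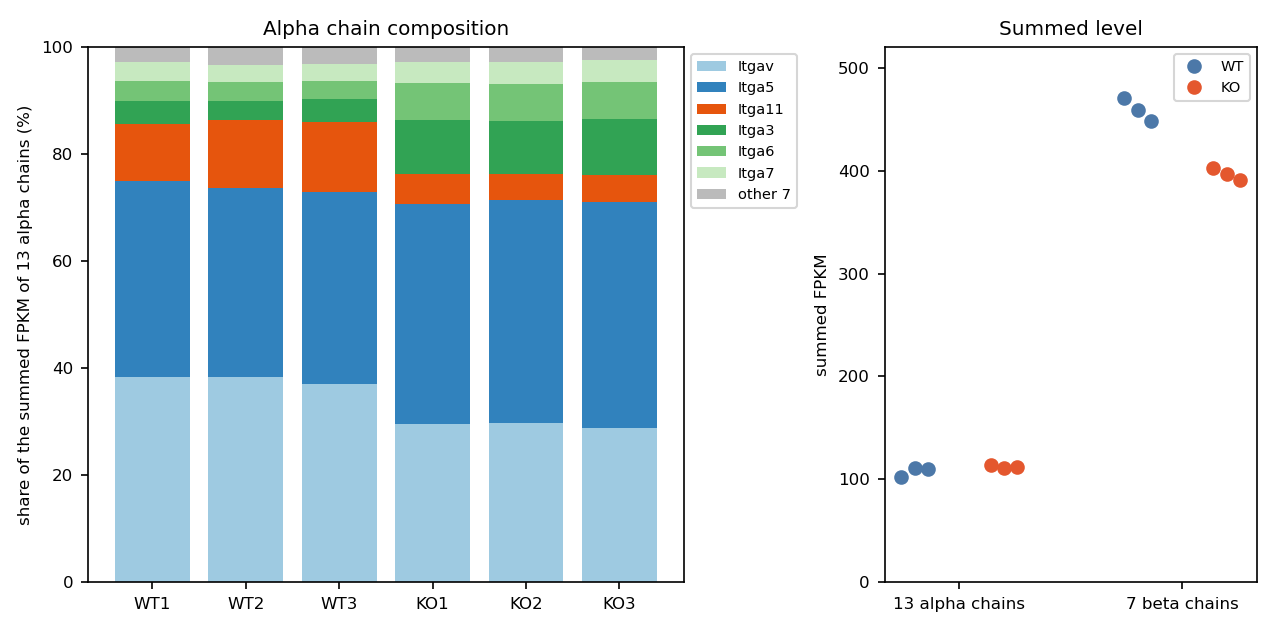
Left, the share of each alpha chain in the summed FPKM of all 13 alpha chains (stacked bars from 0 to 100%, 1 per library, "other 7" being the chains not named). Right, the summed FPKM of the 13 alpha and of the 7 beta chains, 1 point per library. The 3 green laminin-binding segments take 10.2% to 11.4% of a WT and 20.8% to 21.5% of a KO library, and the beta chain sum is 448 to 470 FPKM in WT and 391 to 402 FPKM in KO.

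Of the 7 beta chains, the abundant Itgb1 and Itgb5 were slightly lower and the rare Itgb7 and Itgb8 higher in KO MEFs, while Itgb3, Itgb4 and Itgb6 were not called. Itgb1, the partner of most alpha chains listed here, was the most abundant integrin chain in every library. Its level was 359, 346 and 334 FPKM in WT1, WT2 and WT3 and 308, 306 and 296 FPKM in KO1, KO2 and KO3. Genotypes did not overlap, but the difference was small (log2 fold change -0.19, SE 0.06, edgeR adjusted p = 0.0229), and the call was lost without any 1 of the KO libraries (edgeR adjusted p from 0.105 to 0.229). Itgb5, a partner of alphav in vitronectin receptors, fell from 108 ± 1.93 to 88.5 ± 1.75 FPKM (log2 fold change -0.29, SE 0.07, edgeR adjusted p = 0.000376). Itgb3, the other vitronectin receptor partner, had 3.03 ± 0.197 FPKM in WT and 2.56 ± 0.283 FPKM in KO (log2 fold change -0.25, SE 0.12, edgeR adjusted p = 0.23).
Itgb7 (chromosome 15, from 102124430 to 102140379, minus strand) encodes the beta7 chain that pairs with alpha4 or alphaE on lymphocytes. Its counts were 17, 15 and 17 in the WT and 141, 59 and 51 in the KO libraries, or 0.481, 0.385 and 0.326 FPKM against 2.39, 1.28 and 1.14 FPKM. KO1 was far above the other two KO libraries, which themselves were above every WT library. The log2 fold change was 2.05 (SE 0.28, edgeR adjusted p = 2.33e-11). Its partner alpha4 was lower in KO, and Itgae, which encodes alphaE, had 0.391 ± 0.176 FPKM in WT and 0.289 ± 0.107 FPKM in KO and was not called. None of the 5 tested leukocyte markers of 7 was called by edgeR or DESeq2, and 1 had an unadjusted p below 0.05, as lower in KO. They summed to 1.56 to 2.09 FPKM in WT and 1.57 to 2.66 FPKM in KO libraries, with Adgre1 and Tyrobp at 0 counts, and their part in the value of Itgb7 was not tested.
Itgb8 (chromosome 12, from 119121757 to 119202537, minus strand), whose beta8 chain pairs with alphav and frees active TGF-beta, had 0.156, 0.193 and 0.130 FPKM in the WT and 0.484, 0.531 and 0.540 FPKM in the KO libraries. The KO libraries agreed closely, and the fitted change was 3.27-fold (log2 fold change 1.71, SE 0.24, edgeR adjusted p = 6.5e-11). Itgb4, the hemidesmosome partner of alpha6, had 0.348 ± 0.0990 FPKM in WT and 0.413 ± 0.0805 FPKM in KO and was not called (log2 fold change 0.24, SE 0.26). Its level in KO was thus a small fraction of the 7.66 FPKM of Itga6. Itgb6, an epithelial partner of alphav, had 1 count in WT2, 1 in KO2 and 0 elsewhere, which gives no fold change. The beta chain sum was 459 ± 10.8 FPKM in WT and 397 ± 5.44 FPKM in KO (0.865 times, exact permutation p = 0.1), and Itgb1 kept 75.5% ± 1.02 of it in WT and 76.4% ± 0.710 in KO.

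The talins and kindlins, which activate integrins, were called in 1 of 4 cases. Tln2, the second talin, fell from 4.86, 6.77 and 7.02 FPKM in WT1, WT2 and WT3 to 3.65, 3.70 and 3.94 FPKM in KO1, KO2 and KO3 (log2 fold change -0.73, SE 0.08, edgeR adjusted p = 4.36e-19). WT1 was the WT library nearest to KO, and without it the log2 fold change was -0.88. Tln1, the main talin of fibroblasts, stood at 96.4, 127 and 131 FPKM in WT and 119, 113 and 121 FPKM in KO libraries, so its KO values lay inside the WT range (log2 fold change -0.01, SE 0.06). Fermt2, the kindlin of mesenchymal cells, had 47.5 ± 1.76 FPKM in WT and 42.6 ± 0.975 FPKM in KO and was not called, though no library overlapped (log2 fold change -0.16, SE 0.07, edgeR adjusted p = 0.181). Fermt1, the epithelial kindlin, had 1 count in WT2 and 0 in every other library.

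Of the ILK-PINCH-parvin complex, Parvb was higher, Lims1 and Parva were lower, and Ilk and Lims2 were not called. Parvb (chromosome 15, from 84116244 to 84199889, plus strand) encodes beta-parvin. It had 0.444, 0.677 and 0.541 FPKM in WT1, WT2 and WT3 and 1.29, 1.34 and 1.17 FPKM in KO1, KO2 and KO3 (log2 fold change 1.19, SE 0.22, edgeR adjusted p = 4.24e-06). Its widely expressed relative Parva, alpha-parvin, had 31 ± 0.963 FPKM in WT and 27 ± 1.5 FPKM in KO (log2 fold change -0.20, SE 0.07, edgeR adjusted p = 0.0442), so that alpha-parvin RNA stayed far above beta-parvin RNA in both genotypes. Lims1, which encodes PINCH1, fell from 47.9 ± 1.81 to 40.3 ± 1.71 FPKM (log2 fold change -0.25, SE 0.07, edgeR adjusted p = 0.00693). The call of Parva was lost without any 1 library other than WT1 (edgeR adjusted p up to 0.391) and with the filterByExpr gene filter (0.0548), and that of Lims1 without KO2 or KO3 (up to 0.176).
Lims2, which encodes PINCH2, counted 32, 27 and 39 reads in the WT and 18, 14 and 28 reads in the KO libraries. In FPKM the KO libraries lay below the WT libraries, and KO3 was the nearest to them (log2 fold change -0.94, SE 0.34, edgeR adjusted p = 0.0661). Without KO3 it was called lower (log2 fold change -1.34, edgeR adjusted p = 0.0154). Ilk, the pseudokinase at the core of the complex, was listed at only 0.793 ± 0.234 FPKM in WT and 0.760 ± 0.0543 FPKM in KO. Taf10 lies on the opposite strand over 3533 of the 6334 bases that Ilk spans, and Rrp8 over 794 bases. Whether strand was used in counting is not given in the sources used here, so the level of Ilk is uncertain.

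Of the 8 actin linkers, 6 were not called, among them Flna, Actn1, Actn4 and Zyx, the most abundant of them. Filamin A (Flna) stood at 333, 427 and 443 FPKM in WT1, WT2 and WT3 and at 400, 387 and 412 FPKM in KO1, KO2 and KO3, a log2 fold change of -0.01 (SE 0.06). Flna is X-linked, and the sex-linked transcripts differed between genotypes as given above. The alpha-actinins Actn1 and Actn4 had 141 ± 10.6 and 144 ± 9.92 FPKM in WT and 141 ± 1.37 and 137 ± 5.48 FPKM in KO. Vcl, vinculin, had 39.9 ± 5.28 FPKM in WT and 40.9 ± 1.18 FPKM in KO (log2 fold change 0.04, SE 0.07). Zyx, zyxin, had 65.5 ± 1.51 and 70.6 ± 3.21 FPKM (log2 fold change 0.11, SE 0.07). Vcl and Zyx overlap Ap3m1 and Epha1 on the opposite strand, by 2235 and 1727 bases, and Tln1 overlaps Creb3 by 360 bases.
The tensins, which join the beta tail to actin, did not move as 1 group. Tns2 rose from 11.5 ± 1.01 to 17.0 ± 0.295 FPKM (log2 fold change 0.55, SE 0.08, edgeR adjusted p = 1.36e-10). Tns3 fell from 26.3 ± 1.84 to 22.9 ± 0.193 FPKM (log2 fold change -0.20, SE 0.07, edgeR adjusted p = 0.0386), a call that was lost without any 1 library other than WT1 and with the filterByExpr gene filter (edgeR adjusted p = 0.0564). Tns1 had 16.7 ± 2.13 FPKM in WT and 16.2 ± 0.201 FPKM in KO and was not called.

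Calls lower in KO were also more frequent over all genes without WT1, at 6.12% in place of 4.03% of the genes tested. Among the members, 7 more were then called, each by a small amount: Flna, Tln1, Actn4, Tns1 and Fermt2 lower and Zyx and Bcar1 higher. Their log2 fold changes were then -0.12, -0.14, -0.12, -0.15, -0.13, 0.12 and 0.16 in that order. Vcl and Actn1 were not called in either case (log2 fold changes without WT1 -0.07 and -0.06). The level of the 8 actin linkers together was 746, 878 and 913 FPKM in WT1, WT2 and WT3 and 846, 823 and 867 FPKM in KO1, KO2 and KO3, so that WT1 alone lay below every KO library. The log2 ratio of the means was 0 with WT1 and -0.08 without it.

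**Figure D4:**
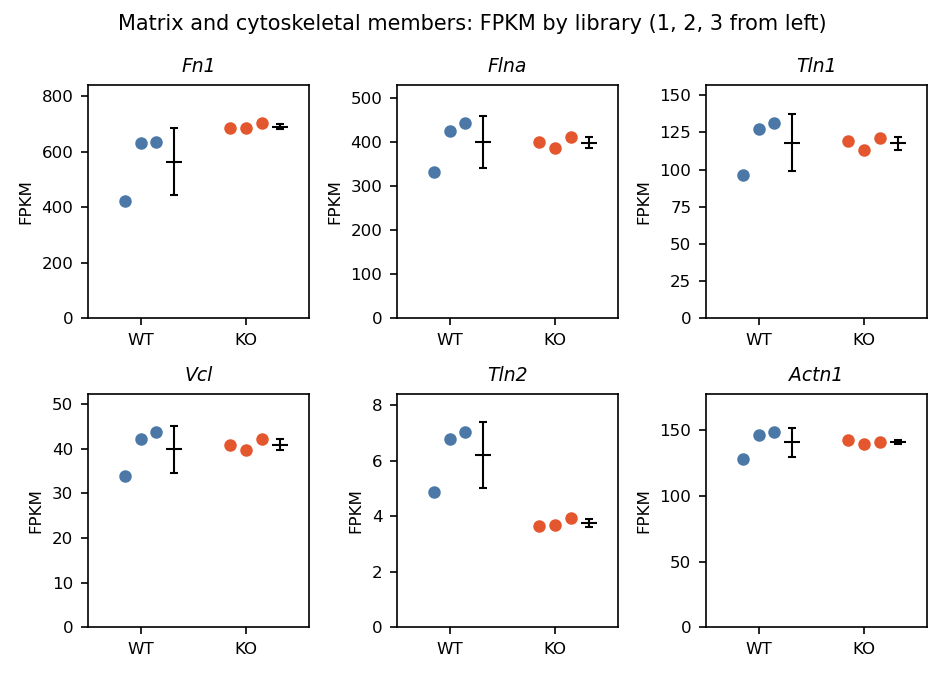
FPKM of 6 matrix and cytoskeletal members in each library (points, libraries 1 to 3 from left to right in each genotype, vertical axes from 0), with the mean and SD beside them. The 6 were chosen to show WT1, which is the lowest WT library in each panel. It stands at 424 FPKM for Fn1 where WT2 and WT3 have 632 and 634 FPKM. Other members differ: among WT libraries Itgb1, Zyx and Fermt2 are highest in WT1, at 359, 67.1 and 49 FPKM.

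Serum response factor with its MRTF cofactors drives many actin cytoskeleton genes through the CArG box. A CArG box was found in 3 of the 38 member promoters (7.89%) and in 1.63% of all promoters listed. The windows of Vcl and Fermt2, both well expressed, are shown with the box in capitals, 60 bases each, on the strand of the gene (GRCm38.p6).
Vcl (chr14:20929148-20929207, plus strand): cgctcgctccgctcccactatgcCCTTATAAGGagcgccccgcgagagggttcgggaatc
Fermt2 (chr14:45530235-45530294, minus strand): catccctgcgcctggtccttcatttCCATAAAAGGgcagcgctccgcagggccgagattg
The box began at -227 in Vcl and at -204 in Fermt2, and neither gene was called. The third was in Itgb6, which had almost no counts. Of 13 SRF-MRTF actin genes none was higher and 3 were lower with edgeR and with DESeq2 (2 and 4 at an unadjusted p below 0.05 in edgeR), with a median log2 fold change of -0.04, beside 9.08% higher and 7.88% lower among genes with a mean of at least 1 CPM. Without WT1, 2 were higher, and without KO1 or KO3, 1 was lower. Of all genes tested, 6.22% were higher without WT1, and 2.61% and 2.47% were lower without KO1 and KO3. The 3 actin genes lower with all libraries were Acta2 (-0.41, SE 0.06), Myl9 (-0.25, SE 0.07) and Cald1 (-0.23, SE 0.06).

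Of the signalling members, Pxn and Src were higher in KO, and Ptk2 and Bcar1 were not called. Pxn, the scaffold paxillin, had 8.94, 10.4 and 10.1 FPKM in WT1, WT2 and WT3 and 13.7, 12.1 and 13.8 FPKM in KO1, KO2 and KO3 (log2 fold change 0.43, SE 0.08, edgeR adjusted p = 5.46e-07). Src, the tyrosine kinase, had 20.7, 20 and 21.5 FPKM in WT and 26.0, 25.6 and 28.2 FPKM in KO libraries (log2 fold change 0.36, SE 0.08, edgeR adjusted p = 5.58e-05). No library overlapped for either gene. Ptk2, which encodes FAK, the kinase that Src joins at adhesions, had 11.8 ± 0.475 FPKM in WT and 11.9 ± 0.496 FPKM in KO (log2 fold change 0.01, SE 0.07). Bcar1, the p130Cas scaffold that both kinases phosphorylate, had 28.8 ± 1.30 and 33.0 ± 0.839 FPKM (log2 fold change 0.20, SE 0.07, edgeR adjusted p = 0.068). It was called with the filterByExpr gene filter (edgeR adjusted p = 0.0439). The 4 genes summed to 71.1 ± 2.48 FPKM in WT and 84.7 ± 3.13 FPKM in KO (exact permutation p = 0.1).

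Fn1 (chromosome 1, from 71624679 to 71692359, minus strand), fibronectin, is the matrix ligand of alpha5 and the most abundant member. Its level was 424, 632 and 634 FPKM in WT1, WT2 and WT3 and 685, 686 and 702 FPKM in KO1, KO2 and KO3 (log2 fold change 0.29, SE 0.05, edgeR adjusted p = 1.23e-06). WT1 set most of this difference: without it the log2 fold change was 0.12 (edgeR adjusted p = 5.38e-06). The edgeR fit took the spread of each gene from the trend over all genes, which makes p-values too small for a gene that varies more than the trend. Fn1 was not called by DESeq2 (adjusted p = 0.364), by the robust edgeR fit (adjusted p = 0.54) or by edgeR with the filterByExpr gene filter (adjusted p = 0.105).

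Over the members as a whole, 18 of the 23 calls were kept by edgeR whichever 1 library was left out. Limma on log2(FPKM + 1) called fewer, 6 members higher and 3 lower, where calls over all genes tested also fell, to 1.98% and 1.41%. In each of the 14 other settings tried, 8 members were called: Itga3, Itga5, Itga6, Tns2 and Src higher and Itga11, Itgav and Itgb5 lower in KO MEFs.

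Genes that work beside the members gave the wider picture, in lists also chosen with earlier results of these data known. Of 66 other focal adhesion genes 65 were tested, 10 were higher and 11 lower, with a median log2 fold change of 0. Beside these lists, 4.97% of all genes tested were higher and 4.03% lower, or 9.08% and 7.88% of those with a mean of at least 1 CPM. The higher count of other focal adhesion genes fell to 6, 6 and 5 without KO1, KO2 and KO3, and the lower count to 7 without KO1 or KO2. Shares over all genes tested fell there too. Without KO1, KO2 and KO3 they were 3.67%, 3.93% and 3.88% higher and 2.61%, 2.78% and 2.47% lower. The only other focal adhesion gene past a 2-fold change with a mean of at least 1 CPM was Bcar3, a partner of p130Cas. It rose from 0.459 ± 0.114 to 1.22 ± 0.106 FPKM (log2 fold change 1.38, SE 0.21, edgeR adjusted p = 4.04e-09). Among the 32 of 33 matrix ligands of integrins tested, 14 were higher and 5 lower, with a median of 0.11. Lama5 alone passed a 2-fold change there. Without WT1, 14 were called higher and 11 lower, beside 6.22% and 6.12% of all genes tested then.
Of 16 membrane partners of integrins, which include tetraspanins and syndecans, 8 were higher and 1 was lower, with a median of 0.18. The higher count was 5 without WT2, 4 without KO3 and 3 with limma on log2(FPKM + 1), and 2 were lower without any 1 of the WT libraries. Of all genes tested, 4.8%, 3.88% and 1.98% were higher in the first settings, in that order. Without WT1, WT2 and WT3, 6.12%, 3.87% and 3.78% of all genes were lower. Sdc4, the syndecan that joins alpha5beta1 in fibronectin adhesion, was the 1 membrane partner past a 2-fold change. It had 23.9, 19.4 and 20.3 FPKM in WT1, WT2 and WT3 and 46.0, 48.7 and 45.3 FPKM in KO1, KO2 and KO3, with no overlap (log2 fold change 1.14, SE 0.08, edgeR adjusted p = 4.41e-45). Cd151, the tetraspanin partner of alpha3 and alpha6, was also among the 8, from 17.2 ± 2.11 to 22.0 ± 2.23 FPKM (log2 fold change 0.35, SE 0.08), and is named after its values were seen. Of 7 leukocyte integrin genes 4 had no count in any library, and the other 3 (Itgae, Itgb2 and Itgax) were not called by edgeR, where 0 had an unadjusted p below 0.05, nor by DESeq2, which gave no adjusted p for Itgax.

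**Figure D5:**
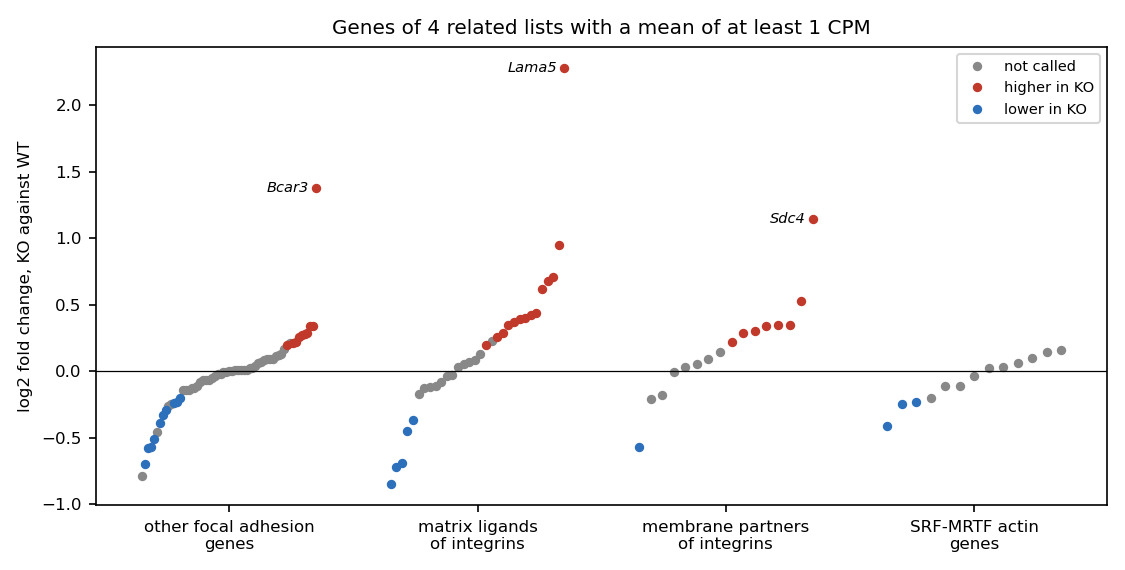
Log2 fold change in KO against WT MEFs (vertical axis) of the genes in 4 related lists with a mean of at least 1 CPM, ordered by value within each list (horizontal axis, 1 point per gene). Red points were called higher, blue lower and grey not called. Bcar3, Lama5 and Sdc4 stand at 1.38, 2.28 and 1.14.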

How the data were processed

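Libraries (3 WT and 3 KO) of MEF RNA were prepared with a NEBNext Ultra kit. The authors' methods name Hisat2 (2.0.5), featureCounts (1.5.0-p3) and DESeq2 (1.20.0). Gene coordinates in the deposited tables are those of GRCm39, although the submitters' processing notes name GRCm38. The authors deposited raw counts per gene and FPKM values, which scale the counts to gene length and library size. The deposited counts served the tests of single genes, and the deposited FPKM the levels, sums and shares, their permutation tests and the limma alternatives. Depth ran from 12722979 counts (WT1) to 21022755 (KO1), and precision falls with low counts: a count of 3 or fewer in each library of a genotype was taken as the floor.

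The 26898 genes that had any FPKM above 0 were fitted with edgeR 4.0.16 in R 4.3.3 (TMM scaling, quasi-likelihood test, no covariates), with Benjamini-Hochberg adjustment over all of them. A gene was called at an adjusted p below 0.05, and past 2-fold at an absolute log2 fold change above 1. The prior degrees of freedom were infinite. SE is the standard error of the log2 fold change and ± the SD over 3 libraries. Sums and shares of FPKM were compared with exact two-sided permutation tests, which cannot go below 0.1 here. Alternatives were DESeq2 1.42.0, RLE factors, 2 gene filters, a robust fit, the replicate number as a block, limma 3.58.1 on log2(FPKM + 1) or log2(FPKM + 0.1), TPM rescaled from FPKM, and each library left out. The fits were tested on simulated data. Promoters and overlaps were read with Python 3.11.15 and pandas 2.3.3, and drawn with matplotlib 3.10.9.

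The members, the related lists and the marker lists were chosen with earlier results of these data known. Named genes were all 42 members, Mcm8, and from each related list the genes past 2-fold with a mean of at least 1 CPM or, with none, the 3 lowest adjusted p-values. Outside this rule Npnt, Cd151, Lama2, Lama4, Lamb1, Lamb2 and Lamc1 were named after their values were seen. Single marker genes were named as well. Sequences come from RefSeq (GRCm38.p6), matched by symbol, and their coordinates are not those of the gene tables. No column was left out, and the reads were not analysed here.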

Additional observations from a re-analysis of the deposited data

How the results depend on the processing

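With limma on log2(FPKM + 1), 6 members were higher and 3 lower (1 and 1 past 2-fold), and on log2(FPKM + 0.1) 7 and 3 (2 and 1), beside 13 and 10 (6 and 3) as reported. Calls over all genes tested fell as well, from 4.97% higher and 4.03% lower. They were 1.98% and 1.41% on log2(FPKM + 1) and 1.96% and 1.45% on log2(FPKM + 0.1). In the same order of settings, higher calls were 4 and 3 among other focal adhesion genes, 7 and 7 among matrix ligands and 3 and 3 among membrane partners, and lower calls were 5 and 5 among other focal adhesion genes and 1 and 0 among SRF-MRTF actin genes. With a count above 0 required in every library, 6 other focal adhesion genes were higher. The cause of these moves was not tested. Rescaled to TPM, the log2 ratio of the laminin-binding sum was 1.05 in place of 1.02, and that of the beta chain sum -0.17 in place of -0.21. Leaving out 1 library at a time, lower members numbered from 6 (without KO2) to 15 (without WT1). In those fits the shares over all genes tested ran from 3.67% to 6.22% higher and from 2.47% to 6.12% lower. Other focal adhesion genes then numbered 5 to 10 higher and 7 to 14 lower, matrix ligands 5 to 11 lower, membrane partners 4 to 9 higher and 1 to 2 lower, and SRF-MRTF actin genes 0 to 2 higher and 1 to 3 lower. Over the members' log2 fold changes, 520 values kept their side of the threshold, 51 lost the call and 10 gained one. To 2 decimals, 27 values of 10 members that were not called changed sign, and none of a called member did. Same-numbered libraries did not deviate together (correlations of -0.02, -0.01 and 0.04), so numbers were not taken as pairs. With the replicate block 13 members were higher and 11 lower, the added call being Lims2 (log2 fold change -0.96, edgeR adjusted p = 0.0492). Depth limits Itgb6 and Fermt1, whose counts were too few for any fold change, and the size of the change in Itga2.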
